A study of Mus musculus with 40 samples.

Results

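The genes described here are 56 genes of DNA repair and damage signalling, taken by their symbols from the 24062 genes of an RNA-Seq count table. The list names known repair genes. The rule uses symbols and no measured value, but the list was chosen with earlier results of these data known. The table comes from primary mouse embryonic fibroblasts (MEFs), connective tissue cells of embryos taken 13.5 days post coitum, used at the third passage, on the Mixed C57BL/6J-129P2OlaHsd background. Embryos carried both (WT), a single (Het) or no intact copy (KO) of Sall2, which encodes a transcription factor with zinc fingers. Every library came either from untreated cells (control) or from cells given 1 µM doxorubicin, a DNA intercalating drug that traps topoisomerase II on broken DNA, for 16 h. In control there were 1 WT, 1 Het and 3 KO libraries. With doxorubicin there were 1 WT, 1 Het and 2 KO libraries, since the columns labelled as KO embryos 2 and 3 were equal at all 24062 genes, so less apart than sampling noise, and entered as 1 sample. Sall2 was targeted in 129P2/OlaHsd-derived embryonic stem cells, so that KO and WT can also differ in genes near Sall2. WT and Het are each 1 embryo, the spread between embryos can be seen only in KO, and all p-values measure the spread between these few libraries.

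Cells keep separate sets of enzymes for separate kinds of DNA damage. Homologous recombination and end joining mend breaks through both strands, the Fanconi anaemia proteins act on crosslinks between strands, nucleotide excision repair cuts out bulky lesions, and base excision repair replaces damaged bases and closes nicks. The kinases Atm and Atr sense damage and signal through Chek1 and Chek2, and modified chromatin at the break gathers Mdc1, Rnf8, Rnf168 and Trp53bp1. Many of these genes, above all those of homologous recombination and the Fanconi anaemia group, are known to be transcribed mainly in dividing cells.

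Before the results, 2 control libraries have to be set apart. Library totals ranged from 15560728 to 24122414 counts, at which 3 counts correspond to between 0.124 and 0.193 CPM (counts relative to the library size, scaled with edgeR's TMM factors). The Het control and the control of KO embryo 3 had a summed level of 10 interferon-response genes of 1876 and 1997 CPM, against 35.2 to 46.7 CPM in the other controls and 298 to 818 CPM with doxorubicin. In the same libraries the summed level of 10 fibroblast markers was 20294 and 16415 CPM, against 78404 to 95327 CPM in the other controls, and that of 7 macrophage markers was 537 and 409 CPM, against 91.5 to 155 CPM. The Het doxorubicin library also stood apart, at 22907 CPM of fibroblast and 567 CPM of macrophage markers, against 47637 to 59808 and 85.5 to 122 CPM in the other doxorubicin libraries. None of these fibroblast or macrophage markers was at 0 in every library. Col1a1 and Fn1 lay at 4146 CPM or more in every library, but Lum lay at 3.32 to 31.4 CPM, Pdgfra at 4.98 to 57.6 and Dcn at 39.8 to 163. The sums thus weigh the highest genes most. Not every marker moved with its sum: in the KO embryo 3 control Dcn was at 67.6 and Csf1r at 22.5 CPM, against 66.0 and 28.4 CPM in the WT control. Sall2 itself lay at 37.4 CPM in the WT control, 24.0 in the Het control and 18.9 to 24.1 in the KO controls, and with doxorubicin at 9.37 (WT), 8.13 (Het), 4.24 and 3.72 CPM (KO embryos 1 and 2). The control of KO embryo 2 thus reached the level of the Het control. Reads were summed over the whole gene, so this checks the labels only in part.

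The promoters of the members with the largest rises and falls with doxorubicin are shown first, to give the DNA beside the values that follow. RefSeq held a promoter (GRCm38.p6, 250 bases before to 50 bases after the start) for 44 of the 56 members. Parp2 (chr14:50807666-50807965, plus strand) and Trp53bp1 (chr2:121271358-121271657, minus strand) fell most, and Ung (chr5:114130185-114130484, plus strand) and Ercc1 (chr7:19344821-19345120, plus strand) rose most. Each is written from 5′ to 3′ along the gene, with the GC box (GGGCGG on either strand, the word bound by Sp1) in capitals:
Parp2: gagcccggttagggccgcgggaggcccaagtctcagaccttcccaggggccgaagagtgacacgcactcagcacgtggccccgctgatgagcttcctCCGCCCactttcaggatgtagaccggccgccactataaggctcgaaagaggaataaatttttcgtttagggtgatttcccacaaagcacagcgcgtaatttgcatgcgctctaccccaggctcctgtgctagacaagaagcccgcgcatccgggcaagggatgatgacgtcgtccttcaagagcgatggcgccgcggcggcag
Trp53bp1: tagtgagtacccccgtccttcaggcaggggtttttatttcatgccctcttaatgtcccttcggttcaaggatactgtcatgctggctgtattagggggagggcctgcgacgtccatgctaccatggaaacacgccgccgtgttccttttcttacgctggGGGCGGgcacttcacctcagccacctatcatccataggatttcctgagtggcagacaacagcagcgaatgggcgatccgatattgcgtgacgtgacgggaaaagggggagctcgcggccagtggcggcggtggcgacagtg
Ung: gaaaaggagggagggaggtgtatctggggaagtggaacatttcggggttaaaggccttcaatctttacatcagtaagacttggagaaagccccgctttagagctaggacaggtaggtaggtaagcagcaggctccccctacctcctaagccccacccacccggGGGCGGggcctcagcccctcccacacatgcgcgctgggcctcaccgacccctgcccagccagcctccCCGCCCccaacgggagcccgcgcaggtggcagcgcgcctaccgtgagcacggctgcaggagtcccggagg
Ercc1: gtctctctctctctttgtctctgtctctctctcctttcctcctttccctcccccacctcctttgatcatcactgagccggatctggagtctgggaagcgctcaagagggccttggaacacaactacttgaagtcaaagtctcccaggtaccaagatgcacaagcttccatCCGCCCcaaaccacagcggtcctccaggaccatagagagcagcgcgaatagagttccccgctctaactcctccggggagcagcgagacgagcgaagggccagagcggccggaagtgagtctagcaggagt
None of the 4 windows held the E2F words (TTTGGCGC, TTTCGCGC, TTTCCCGC or TTTGCCGC), the cell cycle word CHR (TTTGAA) or a p53 response element motif, each looked for on both strands. Over all 44 promoters an E2F word was found for 7 members (15.9%), namely Brca2, Bard1, Rad51c, Xrcc6, Chek2, Mdc1 and Msh6, and for 540 of 16781 genes of the table with a promoter (3.22%). The CHR word was found for 5 members (11.4%) and 2961 genes (17.6%), and the p53 motif for 1 member, Fanca (2.27%), and 1423 genes (8.48%). The GC box, a word chosen after the data were seen, was found for 29 members (65.9%) and 8398 genes (50.04%). A match is a stretch of letters, not evidence of binding.

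With doxorubicin more of the members fell than rose. Of the 56 members, all of which passed the filter on low counts, 18 fell and 4 rose at a Benjamini-Hochberg FDR under 0.01 in edgeR's quasi-likelihood test (two-sided, as for every FDR below; SE is the standard error of a log2 fold change), with the genotypes as a term and all 9 libraries in the fit. Over all 15857 genes tested, 19.1% fell and 21.7% rose, so the share of members that fell (32.1%) was above the background and the share that rose (7.14%) below it. The members were chosen with earlier results of these data known, and among 70 other repair genes tested 18.6% fell and 11.4% rose. The median log2 fold change was -0.43 over the members and -0.01 over all genes tested. The 4 doxorubicin libraries lay below all 5 controls for 21 members, where the background was 22% of the genes tested, and above them for 5 members, where it was 24.6%. In the 4 embryos with both treatments, 28 members were lower with doxorubicin in 4 of 4 embryos, where the background was 35.6% of the genes tested, and 11 were higher in 4 of 4, where it was 38.8%. The summed level of the 56 members ranged from 1034 to 1274 CPM in control and from 984 to 1034 CPM with doxorubicin.

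**Figure D1:**
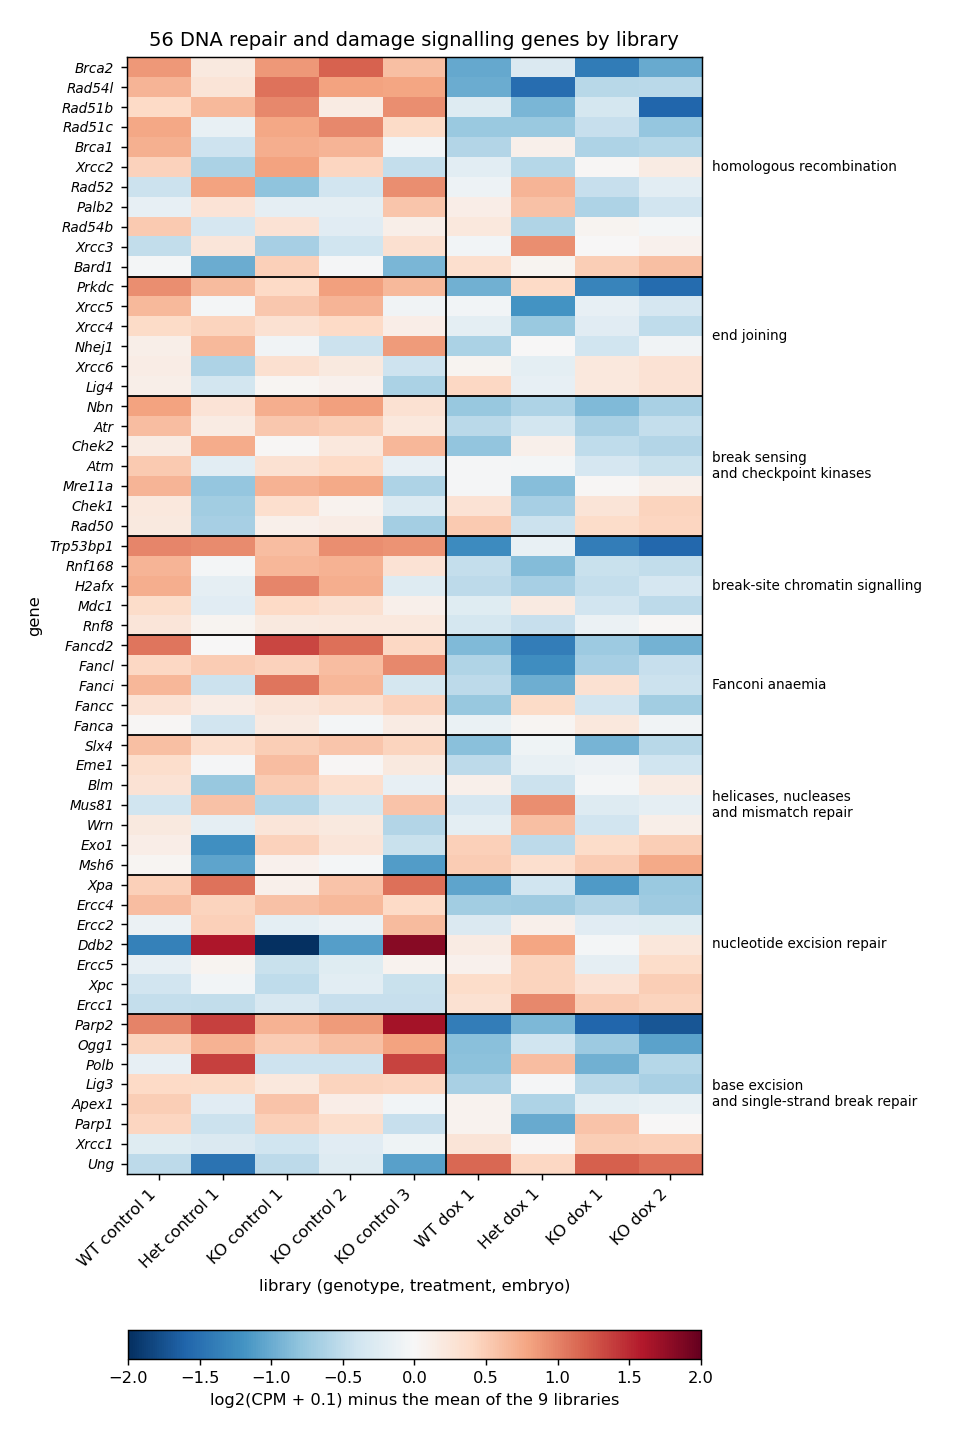
Heat map of the 56 members (rows, grouped by role and ordered by their doxorubicin effect) in the 9 libraries (columns, controls left of the line, doxorubicin right of it). Colour is log2(CPM + 0.1) minus the mean of the row's 9 libraries, red higher and blue lower, with colours ending at 2 and -2, and rows such as Parp2, Trp53bp1 and Fancd2 turn from red to blue while Ung turns from blue to red.

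The counts of calls depended on the libraries in the fit. Without Het and without KO embryo 3, 29 members fell and 7 rose, where the background was 32% and 35.3% of the genes tested. With embryo blocked, 23 members fell and 6 rose, where the background was 27.6% and 30.3%. The shared KO doxorubicin library was taken there as that of embryo 2. Taken as that of embryo 3, which the labels equally allow, 16 members fell and 3 rose, where the background was 18.2% and 21%. The 7 members gained with the block over the main fit were Rad51b, Xrcc3, Xrcc4, H2afx, Fanci, Msh6 and Polb. They did not pass with the library as embryo 3, and Rad51c, Xrcc1 and Xrcc5 no longer passed. Blocked values below are those with the library as embryo 2. With 1 RUVg factor, which removes unwanted variation estimated from the genes tested other than the 5000 of smallest p, 23 members fell and 9 rose, where the background was 29.9% and 32.8%. The 10 members gained there were Bard1 (0.93, FDR 5.0e-04), Rad50 (0.57, FDR 7.0e-04), Lig4 (0.46, FDR 0.0057), Exo1 (0.57, FDR 0.0034) and Msh6 (1.20, FDR 8.3e-06), which rose, and Rad51b, Xrcc4, H2afx, Ercc2 and Polb, which fell. Leaving out the WT control left 10 falls and 2 rises (background 11.6% and 15.2%), the WT doxorubicin library 11 and 2 (11.8% and 15.2%), the KO embryo 1 doxorubicin library 11 and 2 (12.6% and 15.3%), the KO embryo 2 doxorubicin library 12 and 2 (12.2% and 14.3%), and the KO embryo 1 control 16 and 2 (17.2% and 19.8%). All 22 called members kept their sign in each of the 9 fits that left out 1 library, and 11 of them stayed past the threshold in each: Rad54l, Nbn, Trp53bp1, Rnf168, Fancd2, Ercc1, Ercc4, Xpa, Parp2, Ung and Ogg1. With upper-quartile scaling the median of all genes moved to 0.17 and 15 members fell and 5 rose, where the background was 15.1% and 25%. The sign of Rad54b, Blm, Ddb2, Parp1 and Mus81, none of which passed, differed between the scalings tried. By the GENCODE annotation 23 members share exon bases with another gene of the table, mostly on the other strand, among them the called members Rad54l, Lig3, Atr, Trp53bp1, Fancd2, Fancl, Ercc1, Xpa and Ogg1. The kit marks strand, but the strand setting of the counting is not given in the sources used here. How reads on the shared bases were counted is thus not known.

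**Figure D2:**
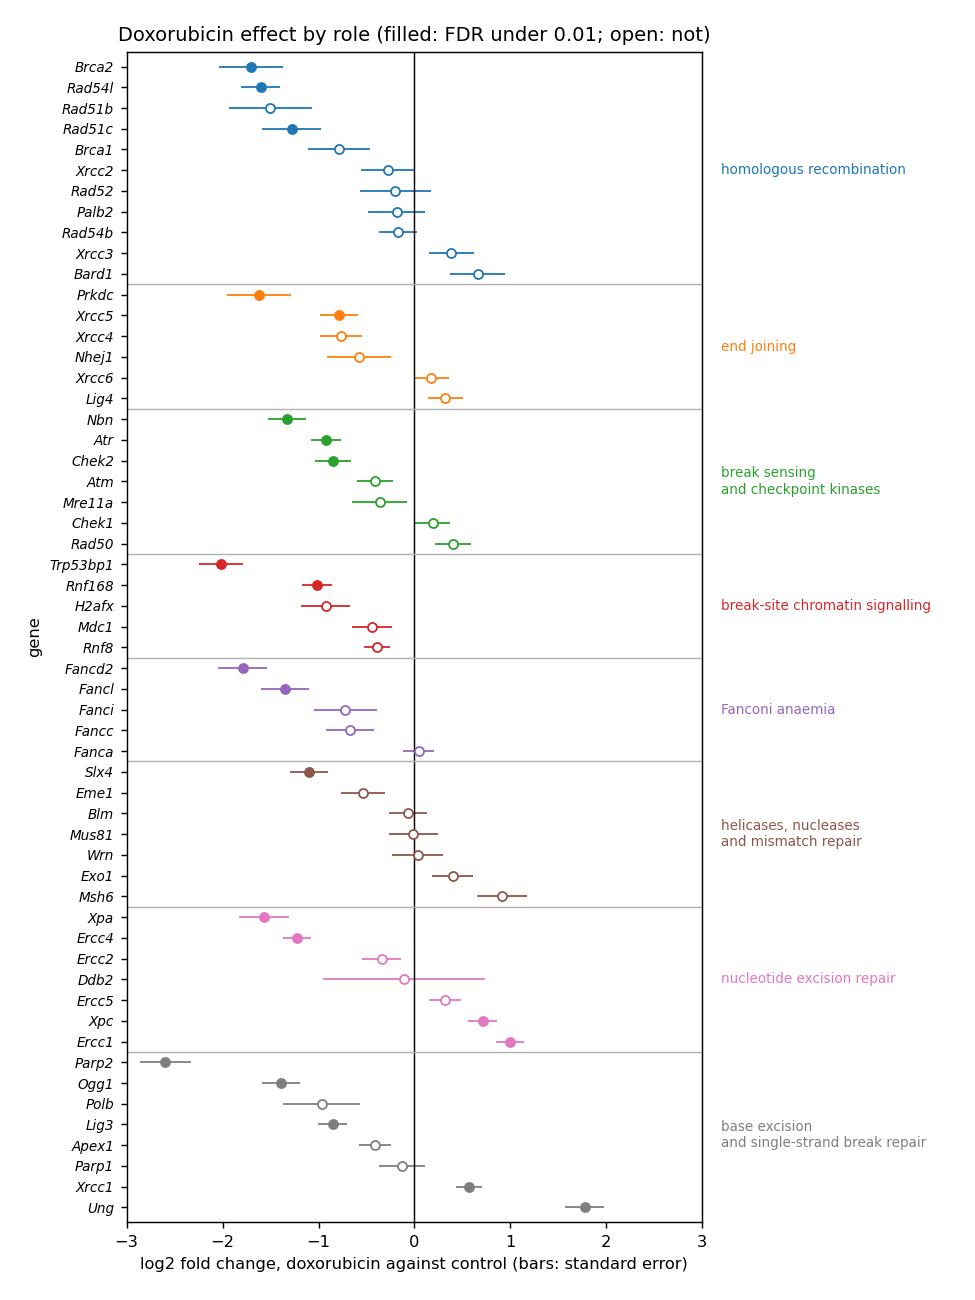
Log2 fold change of each member with doxorubicin against control (points) with its standard error (bars), by role. Filled points passed an FDR under 0.01 in the quasi-likelihood test of edgeR and open points did not, and filled points lie left of 0 in every role while those right of 0 are Xpc, Ercc1, Xrcc1 and Ung.

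In bulk RNA fewer cells of a type and less RNA per cell cannot be told apart, so genes of cycling cells and of the p53 response are given beside the members. Of 15 genes of cycling cells, Top2a and Mcm2 fell, E2f1 rose and 12 did not pass. Their summed level was 428 to 1711 CPM in control, with the Het and KO embryo 3 controls lowest at 428 and 578 CPM, and 360 to 979 CPM with doxorubicin. Of 8 genes of the p53 response only Phlda3 passed, as a fall, and their summed level was 2242 to 2896 CPM in control and 1933 to 2149 CPM with doxorubicin. The ranges of the cycling genes overlapped between treatments. Within each of the 4 embryos with both treatments their sum was lower with doxorubicin. It went from 1344 to 791 CPM in WT, from 428 to 360 CPM in Het, and from 1711 to 979 and from 1402 to 831 CPM in KO embryos 1 and 2. Their part in the falls of the members was not tested.

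Among the 11 genes of homologous recombination, 3 fell, 0 rose and 8 did not pass, with a median log2 fold change of -0.28. Brca2, a tumour suppressor needed for homologous recombination, stood at 11.3 CPM in the WT control, 7.07 in the Het control and 11.4, 14.1 and 9.37 in the controls of KO embryos 1, 2 and 3, and with doxorubicin at 2.99 (WT), 5.01 (Het), 2.29 (KO embryo 1) and 3.03 CPM (KO embryo 2). The Het doxorubicin library was the highest of the treated libraries, and the treated and control libraries did not overlap. Brca2 fell by 1.70 (SE 0.33, FDR 0.0025) on the log2 scale. Rad54l, a motor protein that moves along duplex DNA, stood at 8.60 CPM in the WT control, 6.41 in the Het control and 11.4, 9.42 and 9.28 in the controls of KO embryos 1, 2 and 3, and with doxorubicin at 2.64 (WT), 1.79 (Het), 3.62 (KO embryo 1) and 3.63 CPM (KO embryo 2). Every treated library lay below every control, and Het was lowest in both treatments. Rad54l fell by 1.60 (SE 0.20, FDR 2.7e-04). Rad51c, which also acts in the Fanconi anaemia pathway, stood at 3.01 CPM in the WT control, 1.55 in the Het control and 3.01, 3.46 and 2.28 in the controls of KO embryos 1, 2 and 3, and with doxorubicin at 0.996 (WT), 0.992 (Het), 1.23 (KO embryo 1) and 0.965 CPM (KO embryo 2). The treated libraries lay close together and below the lowest control, that of Het. Rad51c fell by 1.28 (SE 0.31, FDR 0.0072). The call of Brca2 was lost without the WT control or any of the WT and KO doxorubicin libraries, with an FDR up to 0.017, and that of Rad51c was lost without any 1 of the WT and KO libraries other than the KO embryo 3 control, with an FDR up to 0.038.

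Brca1, the partner of Bard1 that directs breaks towards recombination, stood at 21.7 CPM in the WT control, 9.97 in the Het control and 22, 21.3 and 12.8 in the controls of KO embryos 1, 2 and 3, and with doxorubicin at 8.77 (WT), 14.3 (Het), 8.64 (KO embryo 1) and 8.87 CPM (KO embryo 2). The groups overlapped, because Brca1 was low in the Het and KO embryo 3 controls and was higher with doxorubicin than without in Het. Its log2 fold change was -0.79 (SE 0.33, FDR 0.07). Without Het and without KO embryo 3 it fell by 1.31 (SE 0.12, FDR 5.6e-06). Bard1 had a log2 fold change of 0.66 (SE 0.29, FDR 0.079) and was higher with doxorubicin in 4 of 4 embryos. In KO embryo 1 the ratio of doxorubicin to control was only 1.02, with a 95% counting interval of 0.846 to 1.22. In WT and KO embryo 2 the direction of Bard1 was opposite to that of Brca1. Rad51b, the lowest member per exon length by its mean over the controls, had between 6 and 46 counts and a log2 fold change of -1.50 (SE 0.43, FDR 0.017), and with embryo blocked it fell by 1.43 (SE 0.33, FDR 0.0053). Xrcc3 had a log2 fold change of 0.39 (SE 0.23, FDR 0.19), and with the block it rose by 0.58 (SE 0.13, FDR 0.005). The log2 fold changes of Palb2, Rad52, Rad54b and Xrcc2 lay between -0.28 and -0.17. Without Het and without KO embryo 3, Xrcc2 fell by 0.58 (SE 0.15, FDR 0.0057).

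Of the 6 genes of end joining, 2 fell, 0 rose and 4 did not pass. Prkdc, the catalytic subunit of DNA-dependent protein kinase, stood at 19.2 CPM in the WT control, 15.6 in the Het control and 13.3, 17.8 and 15.8 in the controls of KO embryos 1, 2 and 3, and with doxorubicin at 5.13 (WT), 13.2 (Het), 3.96 (KO embryo 1) and 3.40 CPM (KO embryo 2). The Het doxorubicin library was close to the controls and the other treated libraries were far below them. Prkdc fell by 1.62 (SE 0.33, FDR 0.0033). Xrcc5, which encodes the Ku80 subunit of the Ku ring that caps broken ends, stood at 24.5 CPM in the WT control, 15.3 in the Het control and 22.7, 25.1 and 14.9 in the controls of KO embryos 1, 2 and 3, and with doxorubicin at 15 (WT), 6.79 (Het), 13.9 (KO embryo 1) and 12.4 CPM (KO embryo 2). The WT doxorubicin library reached the level of the Het and KO embryo 3 controls, so the groups overlapped. Xrcc5 fell by 0.79 (SE 0.20, FDR 0.0098), close to the threshold, whereas Xrcc6, its Ku70 partner, had a log2 fold change of 0.18 (SE 0.18, FDR 0.44). Xrcc4, the scaffold of the ligase complex, had a log2 fold change of -0.77 (SE 0.22, FDR 0.016) and fell by 0.82 (SE 0.20, FDR 0.0063) with embryo blocked. The ligase Lig4 was higher with doxorubicin in 4 of 4 embryos with a log2 fold change of 0.32 (SE 0.18, FDR 0.17). Nhej1, which bridges the ends for Lig4, had a log2 fold change of -0.58 (SE 0.33, FDR 0.17). The call of Prkdc was lost without the WT control or any of the WT and KO doxorubicin libraries (FDR up to 0.021), and that of Xrcc5 was lost without any library but the KO embryo 3 control (FDR up to 0.040).

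Of the 7 genes of break sensing and the checkpoint kinases, 3 fell, 0 rose and 4 did not pass. Nbn, the subunit that ties the Mre11-Rad50 nuclease to Atm, stood at 23.8 CPM in the WT control, 16.5 in the Het control and 22.5, 23.9 and 16.7 in the controls of KO embryos 1, 2 and 3, and with doxorubicin at 7.97 (WT), 8.78 (Het), 7.30 (KO embryo 1) and 8.59 CPM (KO embryo 2). All treated libraries lay between 7.30 and 8.78 CPM, below all controls. Nbn fell by 1.33 (SE 0.19, FDR 5.7e-04), while its partners Mre11a and Rad50 had log2 fold changes of -0.36 (SE 0.28, FDR 0.31) and 0.40 (SE 0.19, FDR 0.10). Mre11a and Rad50 were both low in the Het and KO embryo 3 controls. Without Het and without KO embryo 3, Mre11a fell by 0.68 (SE 0.10, FDR 1.7e-04).

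Among the kinases Atr and Chek2 fell, and Atm and Chek1 did not pass. Atr, the kinase of stalled forks, stood at 40.1 CPM in the WT control, 29.2 in the Het control and 37.7, 36.7 and 30.1 in the controls of KO embryos 1, 2 and 3, and with doxorubicin at 17.9 (WT), 20.1 (Het), 16.6 (KO embryo 1) and 18.7 CPM (KO embryo 2), with no overlap between treatments. Atr fell by 0.92 (SE 0.16, FDR 0.0014), and its call was lost without the WT control (FDR 0.010). Atm, the kinase of breaks, stood at 48.6 CPM in the WT control, 29.3 in the Het control and 42.1, 45 and 30.4 in the controls of KO embryos 1, 2 and 3, and with doxorubicin at 33.3 (WT), 32.9 (Het), 26.8 (KO embryo 1) and 24.8 CPM (KO embryo 2). Het was the one embryo in which Atm was higher with doxorubicin, and the groups overlapped. Its log2 fold change was -0.41 (SE 0.19, FDR 0.097), and without Het and without KO embryo 3 it fell by 0.69 (SE 0.10, FDR 1.3e-04). Chek2, the kinase downstream of Atm, stood at 13 CPM in the WT control, 19.6 in the Het control and 11.8, 13.5 and 18.4 in the controls of KO embryos 1, 2 and 3, and with doxorubicin at 6.68 (WT), 12.4 (Het), 8.14 (KO embryo 1) and 7.76 CPM (KO embryo 2). Both Het libraries were high, and the Het doxorubicin library overlapped the KO embryo 1 control. Chek2 fell by 0.84 (SE 0.19, FDR 0.005), a call lost without any 1 library but the KO embryo 1 or the KO embryo 3 control (FDR up to 0.026). Chek1, the kinase downstream of Atr, stood at 12.5 CPM in the WT control, 6.62 in the Het control and 13.7, 11.4 and 8.88 in the controls of KO embryos 1, 2 and 3, and with doxorubicin at 13.3 (WT), 6.79 (Het), 12.9 (KO embryo 1) and 14.8 CPM (KO embryo 2). The treated and control libraries covered the same range. Its log2 fold change was 0.19 (SE 0.19, FDR 0.41).

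Of the 5 genes of chromatin signalling at breaks, 2 fell, 0 rose and 3 did not pass, and the median log2 fold change of -0.93 was the lowest of the 8 roles in this fit. Trp53bp1, the reader of modified nucleosomes that favours end joining, stood at 57.3 CPM in the WT control, 55.6 in the Het control and 44.5, 54.9 and 53.9 in the controls of KO embryos 1, 2 and 3, and with doxorubicin at 12 (WT), 26 (Het), 11 (KO embryo 1) and 9.69 CPM (KO embryo 2). The Het doxorubicin library kept the highest treated level, and no treated library reached a control. Trp53bp1 fell by 2.01 (SE 0.23, FDR 1.8e-04). It shares 2130 exon bases with Tubgcp4 on the other strand, whose log2 fold change was -0.38 (SE 0.14, FDR 0.052). Rnf168, a ubiquitin ligase that prepares the chromatin for Trp53bp1, stood at 29.7 CPM in the WT control, 18.1 in the Het control and 29.6, 30.1 and 22.6 in the controls of KO embryos 1, 2 and 3, and with doxorubicin at 13.3 (WT), 10.1 (Het), 13.5 (KO embryo 1) and 13.2 CPM (KO embryo 2), again without overlap. Rnf168 fell by 1.02 (SE 0.16, FDR 7.8e-04).

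H2afx, the histone variant phosphorylated at breaks and the member with the highest level per exon length, stood at 72.1 CPM in the WT control, 38.5 in the Het control and 86.4, 72.3 and 36.4 in the controls of KO embryos 1, 2 and 3, and with doxorubicin at 30.4 (WT), 27.4 (Het), 31.5 (KO embryo 1) and 34.6 CPM (KO embryo 2). All treated libraries lay below the lowest control, while the Het and KO embryo 3 controls lay far below the other controls. Its log2 fold change of -0.93 (SE 0.26, FDR 0.015) did not pass, with embryo blocked it fell by 1.06 (SE 0.16, FDR 6.0e-04), and without Het and without KO embryo 3 it fell by 1.26 (SE 0.10, FDR 3.0e-06). Mdc1, which binds phosphorylated H2afx, had a log2 fold change of -0.45 (SE 0.21, FDR 0.10), and without Het and without KO embryo 3 it fell by 0.75 (SE 0.10, FDR 7.1e-05). Rnf8, the ligase recruited by Mdc1, had a log2 fold change of -0.39 (SE 0.14, FDR 0.041) and was lower in 4 of 4 embryos.

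**Figure D3:**
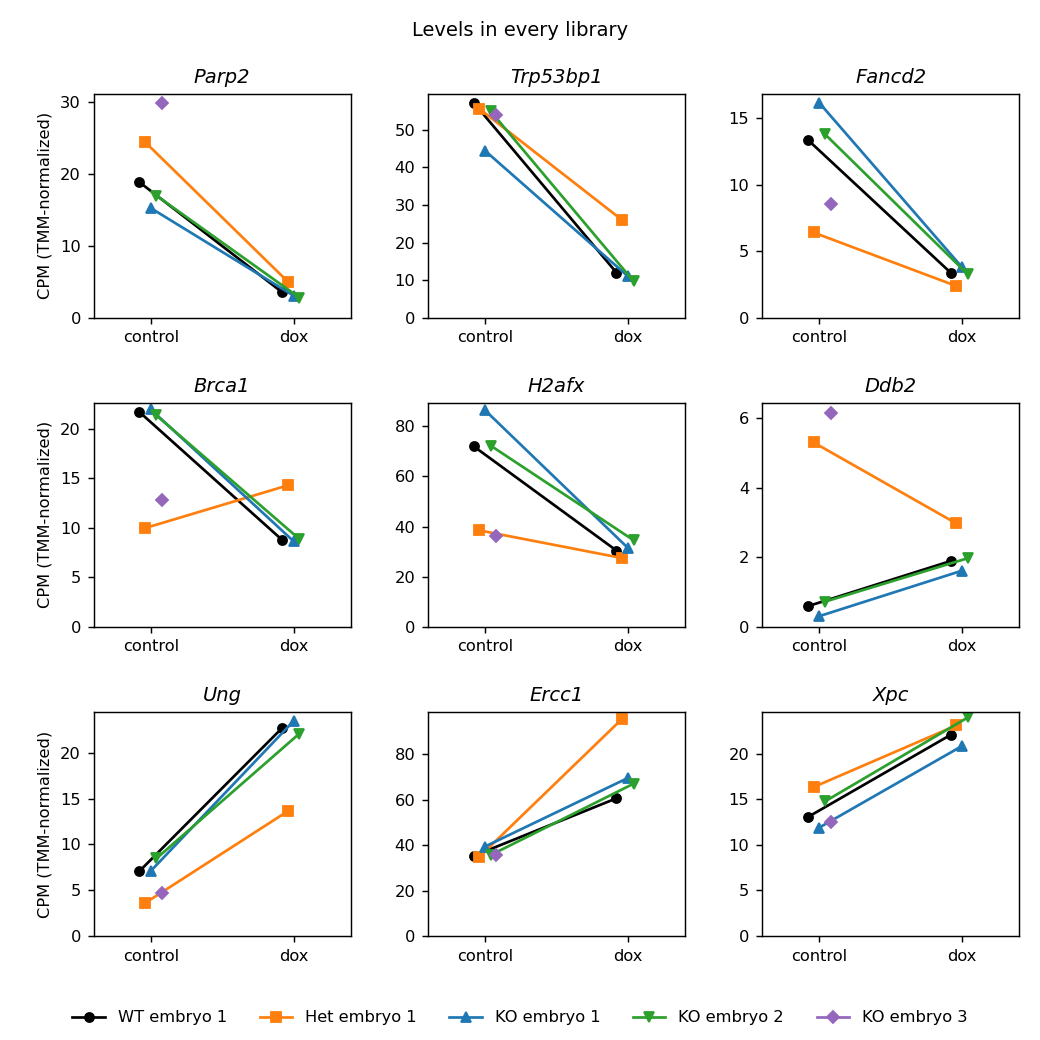
TMM-normalized CPM of 9 members in every library, with a line joining control and doxorubicin of the same embryo; KO embryo 3 has a control only. Parp2, Trp53bp1, Fancd2 and H2afx are lower and Ung, Ercc1 and Xpc higher with doxorubicin in all 4 embryos, while the Het line runs against the others for Brca1 and Ddb2.

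Of the 5 Fanconi anaemia genes, 2 fell, 0 rose and 3 did not pass. Fancd2, which is ubiquitinated at crosslinks and clamps the DNA there, stood at 13.4 CPM in the WT control, 6.41 in the Het control and 16.2, 13.8 and 8.52 in the controls of KO embryos 1, 2 and 3, and with doxorubicin at 3.39 (WT), 2.38 (Het), 3.79 (KO embryo 1) and 3.26 CPM (KO embryo 2). The treated libraries spanned 2.38 to 3.79 CPM and did not overlap the controls, of which Het was lowest. Fancd2 fell by 1.79 (SE 0.25, FDR 5.0e-04). It shares 257 exon bases with Fancd2os on the other strand, which rose by 4.32 (SE 0.62, FDR 0.00051). Fancl, the ubiquitin ligase that modifies Fancd2, stood at 4.74 CPM in the WT control, 5.07 in the Het control and 4.90, 5.46 and 6.92 in the controls of KO embryos 1, 2 and 3, and with doxorubicin at 2.29 (WT), 1.44 (Het), 2.17 (KO embryo 1) and 2.53 CPM (KO embryo 2), with no overlap. Fancl fell by 1.35 (SE 0.25, FDR 0.0019), and the call was lost without the KO embryo 1 doxorubicin library (FDR 0.011). Fanci, the clamp partner of Fancd2, had a log2 fold change of -0.72 (SE 0.33, FDR 0.092), and with embryo blocked it fell by 0.91 (SE 0.17, FDR 0.002). Fancc had a log2 fold change of -0.67 (SE 0.25, FDR 0.051), with a ratio of doxorubicin to control of 1.18 in Het and of 0.479 to 0.641 in the other embryos, and without Het and without KO embryo 3 it fell by 0.91 (SE 0.16, FDR 5.0e-04). Fanca, a subunit of the core complex, lay between 14.4 and 21.8 CPM in all 9 libraries, with a log2 fold change of 0.05 (SE 0.16, FDR 0.83).

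Of the 7 helicases, nucleases and mismatch repair genes, 1 fell, 0 rose and 6 did not pass. Slx4, the scaffold of structure-specific nucleases, stood at 31.1 CPM in the WT control, 26.1 in the Het control and 28.9, 30.2 and 28.1 in the controls of KO embryos 1, 2 and 3, and with doxorubicin at 11.5 (WT), 19.4 (Het), 10.7 (KO embryo 1) and 13.9 CPM (KO embryo 2). The Het doxorubicin library was the highest treated one, and the groups did not overlap. Slx4 fell by 1.10 (SE 0.20, FDR 0.0017), and the call was lost without the WT control or the WT doxorubicin library (FDR up to 0.011). Msh6, a subunit of the mismatch sensor, lay higher in every treated library (87.1 to 117 CPM) than in any control (31.7 to 73.3 CPM). Its log2 fold change of 0.92 (SE 0.26, FDR 0.016) did not pass, and with embryo blocked it rose by 0.77 (SE 0.17, FDR 0.0038). Eme1, the partner of the nuclease Mus81, was lower in 4 of 4 embryos with a log2 fold change of -0.53 (SE 0.23, FDR 0.081), and without Het and without KO embryo 3 it fell by 0.71 (SE 0.20, FDR 0.0097). Mus81 had a log2 fold change of -0.01 (SE 0.25, FDR 0.97). Blm, Wrn and Exo1, a pair of helicases and an end-resecting nuclease, had log2 fold changes between -0.07 and 0.40.

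Of the 7 genes of nucleotide excision repair, 2 fell, 2 rose and 3 did not pass. Xpa, which checks the lesion, stood at 8.11 CPM in the WT control, 12.4 in the Het control and 6.18, 8.64 and 12.5 in the controls of KO embryos 1, 2 and 3, and with doxorubicin at 2.74 (WT), 4.36 (Het), 2.56 (KO embryo 1) and 3.40 CPM (KO embryo 2). No treated library reached the controls. Xpa fell by 1.57 (SE 0.26, FDR 0.0011). Ercc4, the catalytic subunit of the nuclease that cuts on the upstream side of the lesion, stood at 22 CPM in the WT control, 19.6 in the Het control and 21.5, 22.5 and 18.9 in the controls of KO embryos 1, 2 and 3, and with doxorubicin at 8.77 (WT), 8.73 (Het), 9.48 (KO embryo 1) and 8.73 CPM (KO embryo 2). The treated libraries spanned 8.73 to 9.48 CPM. Ercc4 fell by 1.22 (SE 0.15, FDR 2.3e-04). Ercc1, the other subunit of the same nuclease, stood at 35.2 CPM in the WT control, 34.8 in the Het control and 39.4, 35.6 and 35.6 in the controls of KO embryos 1, 2 and 3, and with doxorubicin at 60.6 (WT), 95.6 (Het), 69.5 (KO embryo 1) and 67 CPM (KO embryo 2). All treated libraries were above all controls and Het was highest. Ercc1 rose by 0.99 (SE 0.14, FDR 5.6e-04), so that both subunits of the nuclease passed the test in opposite directions. Ercc1 shares 106 exon bases with Cd3eap on the other strand, which rose by 0.73 (SE 0.13, FDR 0.0016).

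Xpc, the sensor of distorted DNA, stood at 13 CPM in the WT control, 16.3 in the Het control and 11.9, 14.8 and 12.5 in the controls of KO embryos 1, 2 and 3, and with doxorubicin at 22.1 (WT), 23.1 (Het), 20.9 (KO embryo 1) and 24 CPM (KO embryo 2). The treated libraries lay above all controls. Xpc rose by 0.71 (SE 0.15, FDR 0.0037), a call lost without the WT control, the KO embryo 1 control or any of the WT and KO doxorubicin libraries (FDR up to 0.026). Ddb2, the sensor of ultraviolet lesions, stood at 0.593 CPM in the WT control, 5.31 in the Het control and 0.306, 0.724 and 6.16 in the controls of KO embryos 1, 2 and 3, and with doxorubicin at 1.89 (WT), 2.98 (Het), 1.62 (KO embryo 1) and 1.98 CPM (KO embryo 2). It was high in the Het and KO embryo 3 controls and low in the other controls, where it rested on 6 to 13 counts. Its log2 fold change was -0.11 (SE 0.84, FDR 0.92), and without Het and without KO embryo 3 it rose by 1.76 (SE 0.35, FDR 0.0011). The helicase subunit Ercc2 was lower in 4 of 4 embryos (log2 fold change -0.34 (SE 0.20, FDR 0.18)) and the nuclease Ercc5 was higher in 4 of 4 (0.32 (SE 0.17, FDR 0.14)).

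Of the 8 genes of base excision and single-strand break repair, 3 fell, 2 rose and 3 did not pass. Parp2, a poly(ADP-ribose) polymerase that marks nicks, stood at 18.9 CPM in the WT control, 24.5 in the Het control and 15.3, 17 and 29.9 in the controls of KO embryos 1, 2 and 3, and with doxorubicin at 3.54 (WT), 5.01 (Het), 3.07 (KO embryo 1) and 2.80 CPM (KO embryo 2). The treated libraries spanned 2.80 to 5.01 CPM, and the controls 15.3 to 29.9 CPM with the Het and KO embryo 3 controls highest. Parp2 fell by 2.60 (SE 0.26, FDR 9.8e-05), the largest change of the 56 members in this fit. Parp1, the more abundant polymerase of the same kind, stood at 82.7 CPM in the WT control, 45.5 in the Het control and 85.6, 78.7 and 44.8 in the controls of KO embryos 1, 2 and 3, and with doxorubicin at 65.1 (WT), 30.5 (Het), 91.5 (KO embryo 1) and 62.1 CPM (KO embryo 2). Its libraries overlapped, with both Het libraries and the KO embryo 3 control lowest. The log2 fold change of Parp1 was -0.13 (SE 0.24, FDR 0.67).

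Ung and Ogg1, the glycosylases among the members, cut out damaged bases and went in opposite directions. Among the other repair genes given below, the glycosylase Mutyh fell, and Neil1, Neil2, Neil3, Nthl1, Smug1, Mpg and Mbd4 did not pass. Ung, which removes uracil, stood at 7.07 CPM in the WT control, 3.59 in the Het control and 7.10, 8.47 and 4.73 in the controls of KO embryos 1, 2 and 3, and with doxorubicin at 22.7 (WT), 13.6 (Het), 23.5 (KO embryo 1) and 22.1 CPM (KO embryo 2). All treated libraries were above all controls, and Het was the lowest of each treatment. Ung rose by 1.78 (SE 0.20, FDR 1.7e-04), the largest rise of the members. Ogg1, which removes oxidized guanine, stood at 10.5 CPM in the WT control, 12.4 in the Het control and 10.9, 11.6 and 13.4 in the controls of KO embryos 1, 2 and 3, and with doxorubicin at 4.24 (WT), 5.75 (Het), 4.57 (KO embryo 1) and 3.58 CPM (KO embryo 2), with no overlap. Ogg1 fell by 1.39 (SE 0.20, FDR 5.0e-04). Xrcc1 and Lig3, the scaffold and the ligase that work as a complex, also parted: Xrcc1 rose by 0.57 (SE 0.14, FDR 0.007) and Lig3 fell by 0.85 (SE 0.15, FDR 0.0017). The call of Xrcc1 was lost without any 1 of the WT and KO libraries other than the KO embryo 3 control (FDR up to 0.036), and that of Lig3 without the WT control or any of the WT and KO doxorubicin libraries (FDR up to 0.012). Polb, the gap-filling polymerase, was at 55.7 and 55.5 CPM in the Het and KO embryo 3 controls and at 16.1 to 19.2 CPM in the other controls. Polb was lower with doxorubicin in 4 of 4 embryos with a log2 fold change of -0.97 (SE 0.40, FDR 0.068), and fell by 0.53 (SE 0.14, FDR 0.009) with embryo blocked. Apex1, which cuts at the abasic site, had a log2 fold change of -0.41 (SE 0.17, FDR 0.066), and without Het and without KO embryo 3 it fell by 0.51 (SE 0.14, FDR 0.007).

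Levels between genes were compared per exon length, as RPKM over the controls. H2afx was highest, at a mean of 44.2 RPKM (26.3 to 62.5), followed by Apex1 at 15.4 (11.3 to 19.7) and Parp1 at 12.8 (8.47 to 16.2). The ranges of Apex1 and Parp1 overlapped. By the same mean over the controls Rad51b was lowest at 0.45 RPKM (0.31 to 0.56), below Rad51c at 0.61, Palb2 at 0.67 and Brca2 at 0.78. The members span between 1.38 kb (H2afx) and 517 kb (Rad51b) of the genome. Across the 56 members, Spearman's rho between that span and the doxorubicin log2 fold change was -0.24, and across the 15112 genes tested with a position it was -0.13, both given as descriptions since genes of a library share its depth and scaling. The 19 members of shortest span (up to 24.7 kb) had a median log2 fold change of -0.34, and the 19 of longest span (52.5 kb or more) of -0.72.

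Of 71 other repair genes, 70 were tested, and 13 fell and 8 rose with doxorubicin, with a median log2 fold change of -0.36. The share that fell was 18.6% and the share that rose 11.4%, beside the background of 19.1% and 21.7% over all genes tested. The genes named here were chosen after their values were seen. Ercc6, of transcription-coupled repair, fell by 2.14 (SE 0.29, FDR 4.0e-04), Rad23b, the partner of Xpc, fell by 2.13 (SE 0.26, FDR 2.3e-04), and Mutyh, a glycosylase like Ogg1, fell by 2.21 (SE 0.49, FDR 0.0048). Recql4, a helicase, rose by 2.15 (SE 0.22, FDR 1.1e-04), Rrm2b, a ribonucleotide reductase subunit, rose by 1.61 (SE 0.17, FDR 1.2e-04), and Rad9a and Rad1, a pair of subunits of the checkpoint clamp, rose by 0.89 (SE 0.13, FDR 7.0e-04) and 0.83 (SE 0.15, FDR 0.0017). Rad17, which loads that clamp, fell by 1.00 (SE 0.14, FDR 5.0e-04).

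The response of Het was then set beside those of WT and KO within each embryo, as the ratio of CPM with doxorubicin over control with an exact 95% interval that covers counting error only. Brca1 had a ratio of 0.404 (95% interval 0.337 to 0.482) in WT, 0.394 (95% interval 0.326 to 0.474) and 0.415 (95% interval 0.348 to 0.495) in KO embryos 1 and 2, and 1.43 (95% interval 1.20 to 1.71) in Het. Prkdc had a ratio of 0.267 (95% interval 0.213 to 0.332) in WT, 0.298 (95% interval 0.226 to 0.389) and 0.191 (95% interval 0.146 to 0.246) in KO, and 0.846 (95% interval 0.721 to 0.992) in Het. Brca1 thus ran against the other embryos in Het, and the interval of Prkdc in Het lay above those of the other embryos. Ddb2 had a ratio of 3.19 (95% interval 1.63 to 6.71) in WT, 5.28 (95% interval 2.15 to 15.6) and 2.73 (95% interval 1.44 to 5.53) in KO, and 0.560 (95% interval 0.406 to 0.767) in Het. In the fit with a term for genotype and treatment together, the difference in response between Het and WT passed for 0 of the 15857 genes (0%), with 260 genes and 3 members (Prkdc, Brca1 and Trp53bp1) at an unadjusted p under 0.05, and DESeq2 also called 0. The differences, Het minus WT, were 1.66 (SE 0.57, FDR 1.00) for Prkdc, 1.83 (SE 0.69, FDR 1.00) for Brca1, 1.16 (SE 0.46, FDR 1.00) for Trp53bp1, 1.02 (SE 0.44, FDR 1.00) for Mdc1 and 1.30 (SE 0.62, FDR 1.00) for Fancc. With embryo blocked, which leaves 1 residual degree of freedom, the background was 9.53% of the genes tested, and 10 members passed: Brca1, Brca2, Prkdc, Trp53bp1, Mdc1, Fancc, Wrn, Msh6 and Slx4 were higher in the response of Het than of WT and Ddb2 lower. With the shared KO library as embryo 3 the background was 0.101%, and 0 members passed, each with an FDR of 1.00, so all 10 calls rest on an assignment that the labels do not settle. With that library as embryo 2, the blocked difference for Brca1 was 1.83 (SE 0.34, FDR 3.0e-06), for Prkdc 1.66 (SE 0.35, FDR 7.1e-05) and for Ddb2 -2.50 (SE 0.66, FDR 0.0024). In the shared KO library the macrophage markers summed to 85.5 CPM, against 91.5 CPM in the KO embryo 2 control and 409 CPM in the KO embryo 3 control. Both Het libraries carried more macrophage markers than the WT and KO embryo 1 and 2 libraries, as given above. The part of these markers in the differences was not tested.

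**Figure D4:**
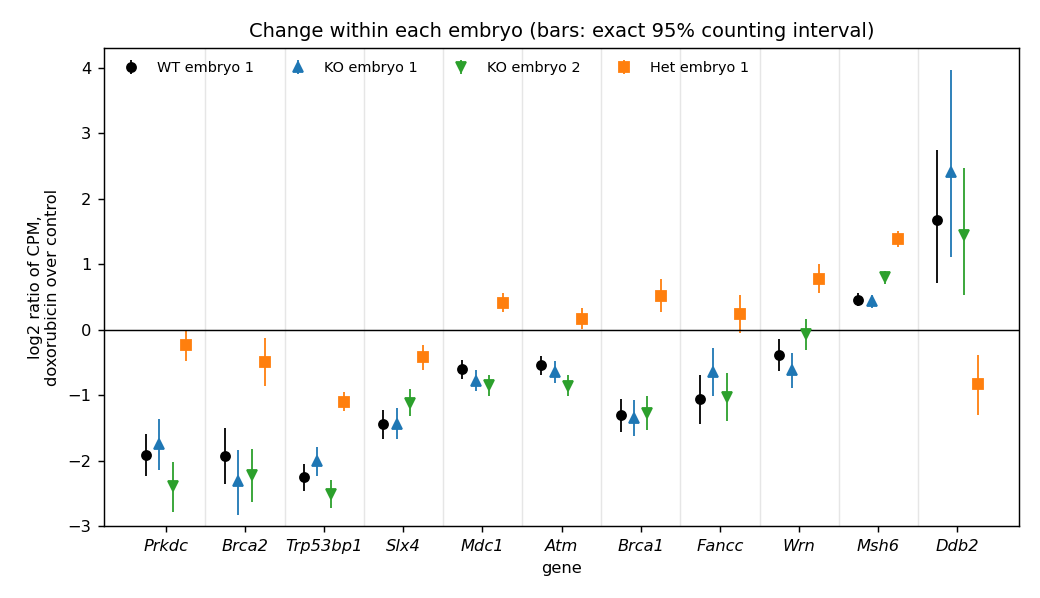
Log2 ratio of CPM with doxorubicin over control within each embryo with both treatments (points) and its exact 95% counting interval (bars), for the 10 members that passed in the blocked difference between Het and WT with the shared KO library as embryo 2 (0 passed with it as embryo 3) and for Atm. The WT and KO points lie together and the Het point lies above them for every gene shown except Ddb2, where it lies below.

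The difference in response between KO and WT passed for 0 genes (0%), with 46 genes and 0 members at an unadjusted p under 0.05, and DESeq2 also called 0. Over the members it lay between -2.09 (Ddb2) and 0.60. The members with the smallest unadjusted p were Palb2, Rnf8, Rad51b, Ddb2 and Parp1, with differences of -0.93 (SE 0.72, FDR 1.00), 0.35 (SE 0.37, FDR 1.00), -1.05 (SE 1.14, FDR 1.00), -2.09 (SE 2.32, FDR 1.00) and 0.49 (SE 0.64, FDR 1.00). Each of the 5 lay within 2 standard errors of 0.

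KO was compared with WT over both treatments to ask whether loss of Sall2 moved the repair genes. None of the 15857 genes passed in the quasi-likelihood test of edgeR (0%), 96 had an unadjusted p under 0.05, none of them a member, and DESeq2 called 3 genes and 0 members. The log2 fold changes of the members lay between -0.34 and 0.76, with a median of 0.00. The edgeR fit thus did not call Sall2 itself, the targeted gene, and WT had 1 library per treatment. It cannot tell a lack of effect from too few libraries to see one. With RUVg and an exact test the paper reports genes that differ between WT and KO, among them Ang. The members with the smallest unadjusted p were Atm at -0.32 (SE 0.23, FDR 1.00), Rad54b at -0.34 (SE 0.25, FDR 1.00), Rad54l at 0.32 (SE 0.24, FDR 1.00), Apex1 at -0.25 (SE 0.21, FDR 1.00) and Lig4 at -0.22 (SE 0.23, FDR 1.00). Parp2 (chr14:50807841-50821301) and Apex1 (chr14:50924968-50927139) lie within 10 Mb of Sall2 (chr14:52311172-52328762, GRCm38), where KO also carries DNA of the targeted stem cells. Parp2 had a log2 fold change in KO against WT of -0.03 (SE 0.30, FDR 1.00), with 0.16 (SE 0.52) in control alone and -0.27 (SE 0.35) with doxorubicin alone. For Apex1 the difference was -0.24 (SE 0.39) in control alone and -0.24 (SE 0.23) with doxorubicin alone.

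Het was compared with WT in the same fit. None of the genes passed (0%), while 3679 of the 15857 genes (23.2%) and 15 of the 56 members had an unadjusted p under 0.05. DESeq2 called 172 genes and 0 members. Of these 15 members, 11 were lower in Het, and the share lower among the 3679 genes was not counted. The members with the smallest unadjusted p were Exo1 at -1.17 (SE 0.32, FDR 0.20), Chek1 at -0.94 (SE 0.28, FDR 0.20), Rad50 at -0.91 (SE 0.28, FDR 0.20), Mus81 at 1.14 (SE 0.38, FDR 0.20) and Xrcc5 at -0.89 (SE 0.30, FDR 0.20). Parp2 was at 0.44 (SE 0.36, FDR 0.42) and Apex1 at -0.71 (SE 0.25, FDR 0.20). The count rested on the control of KO embryo 3: without it, 19.9% of the genes tested passed, and among the members Rad52, Xrcc3, Polb and Mus81 were higher and Xrcc5, Mre11a, Rad50, Chek1, Exo1 and Parp1 lower in Het. Without that library the difference was 1.50 (SE 0.20, FDR 9.3e-04) for Polb, 1.14 (SE 0.17, FDR 0.0015) for Mus81, -1.16 (SE 0.22, FDR 0.0042) for Exo1 and -0.90 (SE 0.14, FDR 0.0014) for Rad50. These fits have no embryo term, so the control and doxorubicin libraries of the 1 Het embryo count as separate samples, as do those of WT. The FDRs thus do not measure the spread between embryos of Het or of WT.

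The Het control and the KO embryo 3 control, from different genotypes, departed from the other controls in the same members. Against the mean of the WT, KO embryo 1 and KO embryo 2 controls, Ddb2 was 9.81-fold in the Het control and 11.4-fold in the KO embryo 3 control, Polb 3.24-fold and 3.23-fold, and Rad52 2.54-fold and 2.78-fold. Mre11a was at 0.354 and 0.397 of that mean, Exo1 at 0.348 and 0.600, and H2afx at 0.500 and 0.473. These are values of single libraries with no test. The interferon, fibroblast, macrophage and cycling markers of both libraries moved with them, and their part was not tested.

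**Figure D5:**
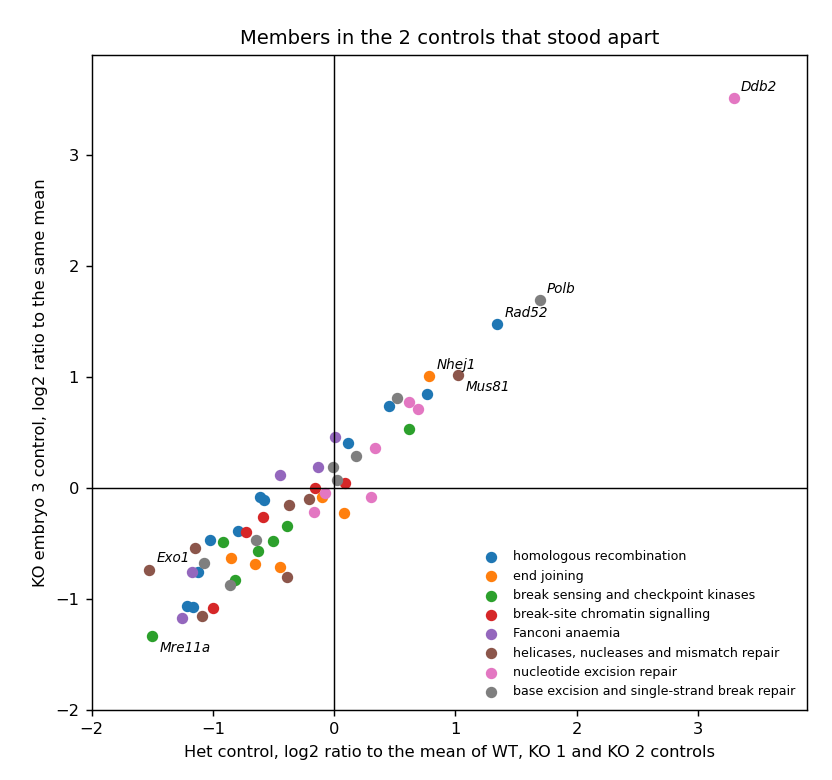
Log2 ratio of each member (points, coloured by role) in the Het control (horizontal axis) and in the KO embryo 3 control (vertical axis) to the mean of the WT, KO embryo 1 and KO embryo 2 controls. Ddb2, Polb, Rad52 and Mus81 lie above 0 on both axes and Mre11a and Exo1 below 0 on both.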

How the data were processed

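RNA was depleted of ribosomal RNA and sequenced from stranded libraries. The authors merged 4 runs per library, aligned the reads to mm10 with HISAT2 (2.1.0 in the submitters' processing notes, another version in the methods), ran HTSeq (union mode) for the gene counts, and deposited those counts of 24062 genes unnormalized. Of 10 columns, 1 was a copy and was left out.

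From the deposited counts, libraries were scaled with TMM, genes were filtered with filterByExpr, and genotype and treatment were tested as additive terms with edgeR 4.0.16 (R 4.3.3; quasi-likelihood test, two-sided) at a Benjamini-Hochberg FDR under 0.01, fitted and adjusted over all 15857 genes tested; differences in response came from a fit with the interaction. The authors' own RUVg normalization and exact test follow this table; RUVg with 1 factor was an alternative here, as were DESeq2 1.42.0, other filters, scalings, thresholds and libraries. The scripts were tested on simulated data. Gene positions are GENCODE M21 (GRCm38), promoters RefSeq (GRCm38.p6).

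KO libraries of the same number were taken as pairs from their titles: across the genes tested, KO embryo 1 minus KO embryo 2 in control correlated with the same in doxorubicin at a Pearson r of 0.37. Whether the shared KO doxorubicin library belongs to embryo 2 or 3 is not given. Its log2 CPM correlated at a Pearson r of 0.872 with the KO embryo 2 control and 0.807 with the KO embryo 3 control. With the WT and KO embryo 1 controls r was 0.870. The assignment itself was not tested.

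Members were named with values by these rules: up to 3 called members per role with the largest change, Brca1, Atm, Atr, Chek1, Chek2, Ddb2, Xpc, H2afx and Parp1; between genotypes, the 5 with the smallest unadjusted p, Parp2 and Apex1; others were named where an alternative changed their call. The members and lists were chosen with earlier results of these data known. Counts from reads without molecular identifiers give intervals and floors that cover counting error only.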

Additional observations from a re-analysis of the deposited data

Results flagged for a closer look

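Within single embryos, 5 members moved beyond counting error one way in Het and the other way in WT, in both KO embryos, or in both genotypes. The ratio of CPM with doxorubicin over control was 1.43 in Het for Brca1, against 0.404 in WT and 0.394 and 0.415 in KO embryos 1 and 2. For Atm it was 1.12 in Het, 0.685 in WT and 0.638 and 0.552 in KO, and for Mdc1 1.33 in Het, 0.656 in WT and 0.583 and 0.555 in KO. For Wrn it was 1.71 in Het and 0.765 in WT. Ddb2 ran the other way, at 0.56 in Het, 3.19 in WT and 5.28 and 2.73 in KO. These opposite directions were picked by the counting intervals of single embryos. Tested across all genes without the embryo as a block, none of these differences between Het and WT passed an FDR under 0.01, and Het is 1 embryo. With the block those of Brca1, Mdc1, Wrn and Ddb2 passed and that of Atm did not (FDR 0.048), in a fit with 1 residual degree of freedom and the shared KO library as embryo 2; with that library as embryo 3, 0 members passed. The difference between Het and KO was not tested.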

How the results depend on the processing

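With doxorubicin 6482 genes passed, with 4 members up and 18 down. With 1 RUVg factor 9948 genes passed, with 9 members up; without Het and without KO embryo 3, 10088 genes, with 7 members up and 29 down; without the Het and KO embryo 3 controls together, an alternative chosen after seeing the data, 10518 genes, with 7 up and 29 down. KO libraries only gave 1911 genes, with 0 members up and 4 down, and an FDR under 0.001 gave 3366 genes, with 2 up and 8 down. The log2 fold change of Ddb2 turned from -0.11 to 1.76 without Het and without KO embryo 3 and to 1.71 without both controls. Leaving out 1 library gave 4179 genes (without the KO embryo 2 doxorubicin library) to 9320 genes (without the KO embryo 3 control), 2 to 6 members up and 10 to 24 down. The cause of these shifts was not tested. DESeq2, the other filters, robust estimation and the added scalings stayed within 1.5 times of the count of genes.

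KO against WT, with 0 genes, gave 2 with 1 RUVg factor, 6 with doxorubicin libraries only, 3 without the Het and KO embryo 3 controls, 3 with DESeq2 and 0 to 1 with 1 library left out, and never a member. Het against WT, also 0, gave 1 gene with every gene of at least 1 count, 1 with 1 RUVg factor, 1 at an FDR under 0.05, 172 with DESeq2, and 0 to 3123 genes, 0 to 4 members up and 0 to 6 down with 1 library left out. The difference in response between Het and WT gave 0 to 24 genes with 1 library left out, 24 without the KO embryo 3 control.

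With the replicate block, which pairs the libraries of an embryo, 9179 genes passed with doxorubicin, with 6 members up and 23 down, or 6207 genes, with 3 up and 16 down, with the shared KO library as embryo 3. The difference in response between KO and WT then gave 8 genes, or 6 with the shared KO library as embryo 3, and that between Het and WT 1511 genes, with 9 members up and 1 down, or 16 genes and 0 members with the shared library as embryo 3. These interaction fits have 1 residual degree of freedom. Leaving out the only WT library of a treatment leaves no interaction to fit with WT, and the same holds for Het. Depth limits Rad51b and Ddb2, with as few as 6 counts in a library.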
